A study of Mus musculus with 3 samples.

Results

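The natural killer (NK) cells of the mouse inguinal fat pad were 152 of 16838 cells (0.903%) in 3 single-cell libraries of the stromal vascular fraction, the cells left after the fat-filled adipocytes are removed. The animals were C57BL/6 mice. The cold library came from mice kept at 4 C for 3 days. The CL library came from mice given CL 316,243, a beta-3 adrenergic receptor agonist, intraperitoneally at 1 mg/kg for 3 days. The saline library is the control. Each group was 1 library, so no value below has a replicate and no test was made. How many animals entered each library, their age and sex, and whether the cold-exposed mice were also injected are not given in the sources used here. An NK cell was a barcode with at least 500 genes, at most 15% mitochondrial transcripts, at least 3 unique molecular identifiers (UMIs) summed over Ncr1, Klrb1c, Klre1 and Gzma with at least 2 of these genes detected, no UMI of Cd3e, Cd3d or Cd3g and none of Cd79a. The cells were chosen by these counts, so the levels of the 4 genes are given only to describe them.

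NK cells are innate lymphocytes that kill infected, transformed or stressed cells without antigen receptors of their own. They weigh signals from activating receptors against signals from inhibitory receptors that bind major histocompatibility complex (MHC) class I, and they deliver perforin and granzymes from granules. In adipose tissue they are known as a source of interferon gamma and chemokines that act on macrophages.

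The filters kept 3862 cells of the cold library, 6705 of the CL library and 6271 of the saline library, which held 62, 57 and 33 NK cells in that order. The NK cells had a median of 3263.5 UMIs in cold, 3433 in CL and 2953 in saline. Their summed UMIs were 250014 in cold, 254108 in CL and 121011 in saline, so that a single UMI stood for 4.00 CPM (the UMIs of a gene scaled to a common total) in cold, 3.94 in CL and 8.26 in saline. All CPM below are of these sums, and intervals are exact 95% intervals that cover counting error only. Barcodes shared between libraries numbered 4 for cold and CL, 7 for cold and saline and 9 for CL and saline, and 1 NK barcode was among them. Transcripts of other cell types were unevenly spread over the NK cells. The summed level of 16 myeloid marker genes was 344 CPM in cold NK cells with 13 of the 16 detected, 4097 CPM in CL with 15 detected and 1207 CPM in saline with 13 detected. In CL, 9 NK cells with at least 10 myeloid UMIs held 973 of the 1041 myeloid UMIs, many of them from Lyz2 and from the MHC class II genes H2-Aa, H2-Ab1 and H2-Eb1. The summed level of 10 stromal marker genes was 1496 CPM in cold, 157 CPM in CL and 2711 CPM in saline, and a single cell held 344 of the 374 stromal UMIs in cold and another 307 of the 328 in saline. The summed level of 10 B cell markers was 224 CPM in cold, 1255 CPM in CL and 289 CPM in saline, with Cd79a, Ms4a1 and Pax5 at 0 in each. The 9 CL cells held 294 of the 319 B cell marker UMIs. Of those 319 UMIs, 285 were of Cd74, the invariant chain of MHC class II, and 30 of Ighm. The CL level is thus largely that of a class II gene. The 14 T cell markers summed to 832 CPM in cold (7 detected), 354 CPM in CL (6 detected) and 719 CPM in saline (5 detected). Cd4, Cd8a, Cd8b1 and Cd5 had no UMI in NK cells of any library. The doublet caller Scrublet marked 1 cold, 1 CL and 0 saline NK cells, with 0.104% of all cold, 0.954% of all CL and 1.37% of all saline cells marked. These rates are low, no cell was removed on the call, and doublets cannot be said to be absent. Results that move with these cells are also given without the 2 cold, 9 CL and 2 saline NK cells that had at least 10 UMIs of myeloid, stromal or endothelial markers, an alternative added after the data were seen.

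Of markers that the rule did not use, Nkg7 and Tyrobp were detected in nearly all NK cells and Eomes in 74 of the 152. Nkg7, a granule membrane protein, had a UMI in 61 of 62 cold, 55 of 57 CL and 32 of 33 saline NK cells. Tyrobp, the adaptor of activating receptors, was detected in 147 of the 152 cells. Eomes, the transcription factor that marks NK cells among innate lymphocytes, had a UMI in 30 of 62 cold cells (48.4%), 26 of 57 CL cells (45.6%) and 18 of 33 saline cells (54.5%). After each cell was thinned to 1500 UMIs these shares were 29.5% in cold, 11 of 55 cells in CL and 8 of 32 cells in saline. No B cell and no stromal cell of any library had an Eomes UMI, although the stromal cells were deeper, with medians of 7406 UMIs in cold, 6490.5 in CL and 6395.5 in saline. Close to the threshold, the 4 genes summed to 3 or 4 UMIs in 6 of 62 cold, 4 of 57 CL and 6 of 33 saline NK cells. Of these 16 cells 14 had an Nkg7 UMI but 2 an Eomes UMI. Among the 110 NK cells with a sum of 10 or more, 109 had an Nkg7 UMI and 63 an Eomes UMI. Just outside the threshold, 1 cold, 2 CL and 3 saline cells had 2 UMIs from 2 of the genes, and all 6 had an Nkg7 UMI. A further 5 cold, 7 CL and 3 saline cells met the marker sum but had a Cd3 UMI. All 15 had an Nkg7 UMI and 3 an Eomes UMI, so Nkg7 did not set the NK cells apart from these.

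Relative to the other gated classes, the NK cells stood out by receptors of the NK gene complex and by granule proteins. Since the same counts gated the cells, this is a description. Gzma, a granzyme, reached 5177 CPM over the pooled NK cells, against 47.1 CPM in Cd8 T cells, the next highest class. Klra4, a Ly49 receptor that the rule did not use, had 699 CPM in NK cells and 5.89 CPM in T cells. Prf1, the pore-forming protein perforin, had 168 CPM in NK cells and 9.41 CPM in Cd8 T cells. Car2, a carbonic anhydrase, was among the 15 genes with the highest ratios as well, with 245 CPM in NK cells and 13.2 CPM in Cd8 T cells. Of those 15 genes 8 lie on chromosome 6, which carries 6.07% of all genes. All 17 measured genes of the killer cell lectin-like receptor family lie there, between 122270596 and 130386874 (GENCODE M21 on GRCm38).

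**Figure D1:**
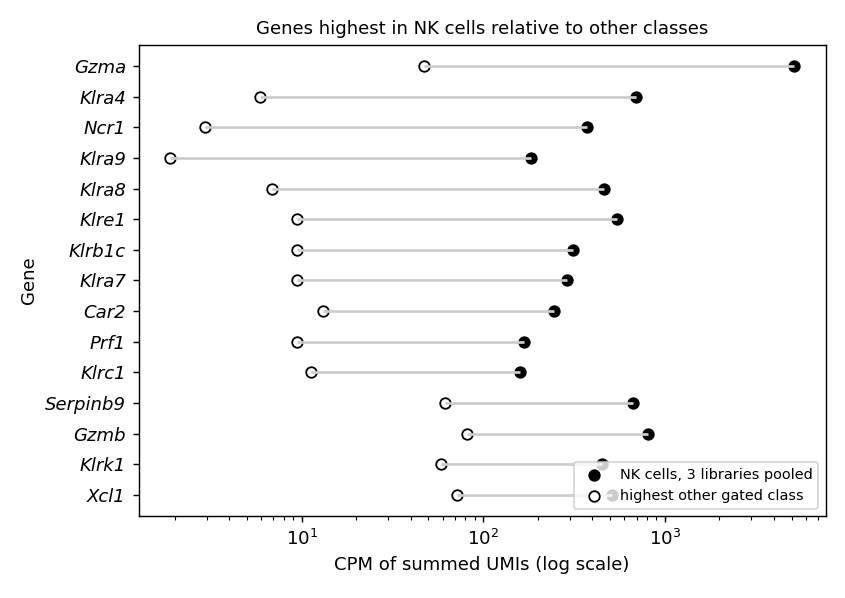
Level of the 15 genes with the highest ratio of NK cells to other classes, as CPM on a log axis. Filled points are the 152 NK cells of the 3 libraries pooled and open points the highest other gated class. Gzma is highest in NK cells at 5177 CPM, and Xcl1 has the smallest ratio of the 15.

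NK cells took a larger share of the cold library than of the saline library under every denominator used. The share was 1.61% in cold (62 of 3862 cells, Clopper-Pearson interval 1.23 to 2.05%), 0.850% in CL (57 of 6705, 0.644 to 1.10%) and 0.526% in saline (33 of 6271, 0.363 to 0.738%). Cold over saline was 3.05-fold, a log2 ratio of 1.61 (interval 1.00 to 2.22). It was 1.48 among cells with a UMI of Ptprc, the pan-leukocyte gene, and 1.56 after thinning all cells to 1500 UMIs. CL over saline was 1.62-fold, a log2 ratio of 0.69 (0.08 to 1.31), and this ratio moved with the denominator. Among Ptprc-positive cells it was 0.38 (-0.24 to 1.00), with 1.18% in CL and 0.908% in saline. The CL library held 3915 myeloid-gated cells, against 447 in cold and 1209 in saline. Outside the myeloid gate, NK cells made up 1.82% of cold (62 of 3408), 1.99% of CL (54 of 2719) and 0.637% of saline cells (32 of 5026). CL over cold was -0.92 (-1.43 to -0.40) over all cells and 0.13 outside the myeloid gate. T cells numbered 263 in cold, 98 in CL and 362 in saline, so NK cells per 100 T cells were 23.6 in cold, 58.2 in CL and 9.12 in saline. A larger share of cells in a library does not tell more NK cells in the tissue from fewer cells of other types.

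**Figure D2:**
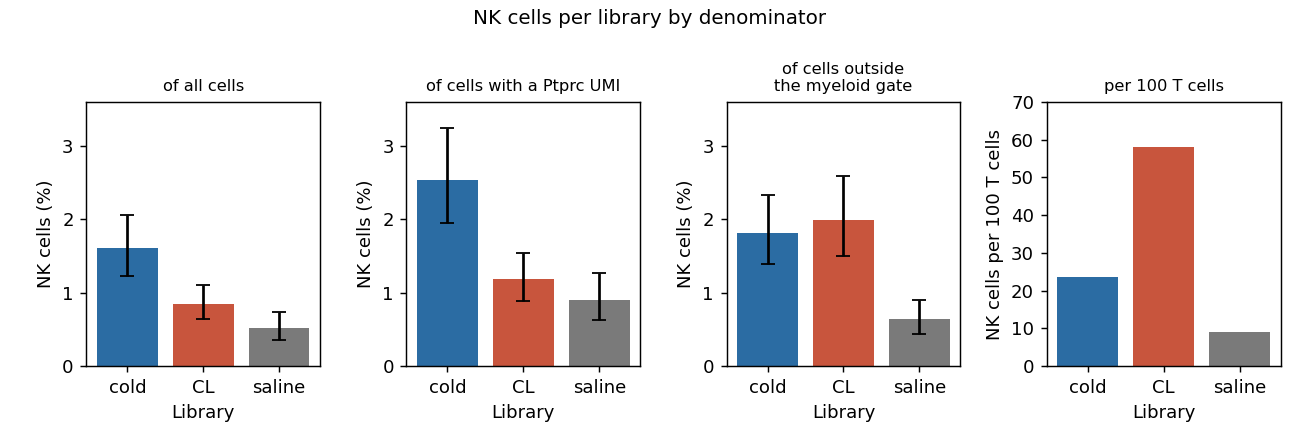
NK cells in the cold, CL and saline libraries as a percentage of all cells, of cells with a Ptprc UMI and of cells outside the myeloid gate, and per 100 T cells. Bars are the values of 1 library each, and whiskers are exact binomial intervals. Cold exceeds saline in every panel, while CL lies between them over all cells, level with cold outside the myeloid gate and highest per T cell.

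The 3 libraries were compared gene by gene on the summed UMIs, for genes with at least 20 UMIs over the 2 libraries compared. A log2 ratio of at least 1 or at most -1 counts as past 2-fold, and a sum under 3 was replaced by 3 counts. For cold over saline, 134 of 2488 genes (5.39%) were past 2-fold higher and 170 (6.83%) past 2-fold lower. For CL over saline, 343 of 2729 genes (12.6%) were past 2-fold higher and 175 (6.41%) lower. For CL over cold, 336 of 3345 genes (10.0%) were past 2-fold higher and 194 (5.80%) lower. These shares are the background for the gene lists. Both ratios to saline share the saline library, and both CL ratios the CL library. Genes above 0 made up 48.5% for cold over saline, 58.2% for CL over saline and 58.3% for CL over cold, and genes below 0 made up 51.5%, 41.8% and 41.7% in the same order. The median gene had a log2 ratio of -0.05 for cold over saline, 0.13 for CL over saline and 0.17 for CL over cold. The scaling mattered: with edgeR's TMM factors the higher calls were 69.9% of the cold over saline calls, against 44.1% on CPM. For CL over cold they were 48.3%, against 63.4% on CPM. TMM moved the median gene to 0.16 for cold over saline and to 0.01 for CL over cold. A list member that passed the UMI minimum through its high library alone had to differ, so each list is also given by its summed level.

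**Figure D3:**
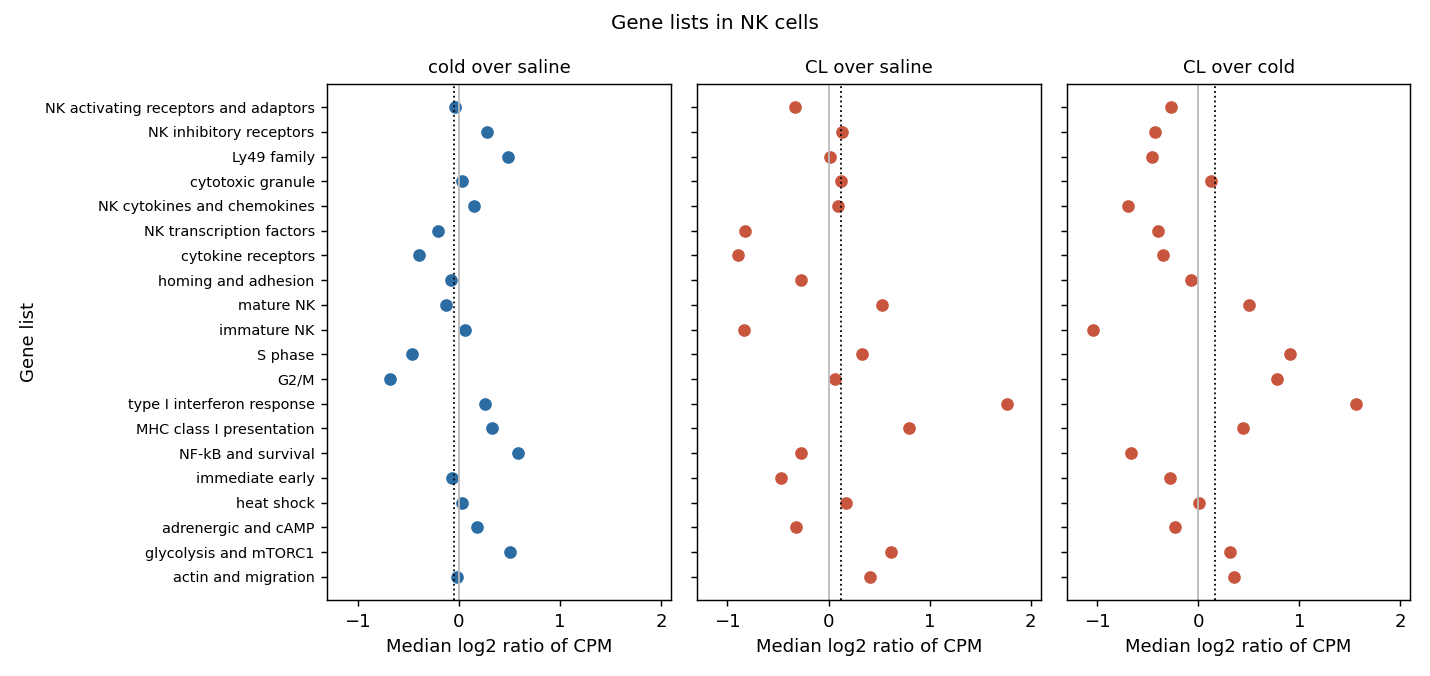
Median log2 ratio of CPM over the measured members of 20 gene lists in NK cells, for cold over saline, CL over saline and CL over cold. The dotted line is the median of all measured genes and the grey line is 0. The type I interferon list lies farthest to the right in both CL panels, at 1.76 and 1.56, and the NF-kB and survival list is the highest for cold over saline, at 0.59.

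Activating receptors and their adaptors, a list that holds the rule's genes Ncr1, Klrb1c and Klre1, had medians near or below 0 in both ratios to saline. Of 22 genes in the file, 17 were measured for cold over saline, with 8 above 0, 9 below and a median of -0.04. In CL over saline 6 of 18 were above 0, 12 below and none past 2-fold either way, with a median of -0.33. Without the genes of the rule the medians were -0.11 for cold over saline and -0.30 for CL over saline. The summed level of the whole list was 6812 CPM in cold, 5813 CPM in CL and 6454 CPM in saline. Klrk1, the NKG2D receptor for stress ligands, had 492 CPM in cold, 394 CPM in CL and 504 CPM in saline. Ncr1, the NKp46 receptor and a gene of the rule, had 488 CPM in cold, 252 CPM in CL and 388 CPM in saline.

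Among inhibitory receptors, Klrb1b differed most. Klrb1b, an NKR-P1 receptor that binds Clr-b, had 64.0 CPM in cold, 35.4 CPM in CL and 215 CPM in saline. The log2 ratio was -1.75 for cold over saline (-2.74 to -0.79) and -2.60 for CL over saline (-3.88 to -1.46). The highest values over the alternatives were -1.31 and -1.95. Il7r, with 1 CL UMI, had the same highest value of -1.95. Without cells that had UMIs of Mki67 or Top2a, Klrb1b was -1.57 for cold over saline. Mki67, with no UMI left there, had the same value. Such values can come from small or equal sums and do not show that Klrb1b stayed lower. Klrb1b had a UMI in 13 of 62 cold, 8 of 57 CL and 13 of 33 saline cells. Klrd1, the CD94 partner of NKG2 receptors, had 788 CPM in cold, 539 CPM in CL and 471 CPM in saline, with a cold over saline ratio of 0.74 (0.31 to 1.19). Klrc1, the NKG2A chain that pairs with it, had 180.0 CPM in cold, 114 CPM in CL and 215 CPM in saline. As a list, 7 of 11 measured inhibitory receptors were above 0 for cold over saline and 6 of 11 for CL over saline, with 1 past 2-fold higher and 1 lower in each. The lower member was Klrb1b. The higher was Tnfrsf9, the 4-1BB receptor, better known as co-stimulatory than as inhibitory, with 25 UMIs in cold, 39 in CL and 6 in saline and ratios of 1.01 for cold over saline (-0.31 to 2.59) and 1.63 for CL over saline (0.38 to 3.16).

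The Ly49 receptors, lectin-like receptors that read MHC class I and are switched on in subsets of NK cells, were present in most cells of all libraries. Any Ly49 gene had a UMI in 48 of 62 cold cells (77.4%), 53 of 57 CL cells (93.0%) and 23 of 33 saline cells (69.7%). Their summed level was 2236 CPM in cold, 1641 CPM in CL and 1636 CPM in saline. Of the 6 measured members, 5 were above 0 for cold over saline and 3 for CL over saline, none past 2-fold. Klra4, an activating member, had 852 CPM in cold, 610.0 CPM in CL and 570.2 CPM in saline. Klra8, the Ly49H receptor for a cytomegalovirus protein, had 588 CPM in cold, 346 CPM in CL and 438 CPM in saline. Ly49 genes are near copies of each other, so how the counting divided reads among them is uncertain, and the same holds for Hspa1a and Hspa1b and for the H2 class I genes below.

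For CL over saline, granzyme B was the 1 granule gene of 13 past 2-fold higher, where 12.6% of all genes were. Gzmb, a protease that starts apoptosis in the target cell, had 652 CPM in cold, 1157 CPM in CL and 429.7 CPM in saline. It had a UMI in 36 of 62 cold cells (58.1%), 48 of 57 CL cells (84.2%) and 15 of 33 saline cells (45.5%), and after thinning in 41.0% of cold, 67.3% of CL and 31.2% of saline cells. In B cells the share was 0.143% in cold, 0% in CL (0 of 206) and 0.0703% in saline, at median depths of 2569, 1731 and 1778.5 UMIs. The Gzmb ratio was 1.43 for CL over saline (1.00 to 1.88; 0.82 to 2.08 over the alternatives) and 0.60 for cold over saline (0.14 to 1.08). Gated T cells had 142 CPM of Gzmb in CL and 69.7 CPM in saline.

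Most other granule genes differed less. Gzma had 5076 CPM in cold, 5832 CPM in CL and 4008 CPM in saline, a CL over saline ratio of 0.54. Prf1 had 144 CPM in cold, 197 CPM in CL and 157 CPM in saline, with intervals of the Prf1 ratios that included 0. The 18 granule genes summed to 11259 CPM in cold, 11845 CPM in CL and 9231 CPM in saline, much of it Gzma, a gene of the rule. Without Gzma the sum was 6184 CPM in cold, 6013 CPM in CL and 5223 CPM in saline. Of 13 measured members, 7 were above 0 for cold over saline and 8 for CL over saline, with medians of 0.03 and 0.12. Without Gzma these were 6 and 7 of 12, with medians of 0.011 and 0.082. The 1 member past 2-fold lower for cold over saline was Lamp1, a membrane protein of lysosomes and granules, with 72.0 CPM in cold, 142 CPM in CL and 190.1 CPM in saline. Gzmc, a granzyme of strongly activated killer cells, had 22 UMIs in cold, 9 in CL and none in saline. Against 3 counts in saline its cold ratio was at least 1.83 on the log2 scale, but 1 cold cell held 14 of the 22 UMIs and without the top cell of each library the value was 0.37.

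Ifng, Ccl3 and Ccl5 were lower in CL than in both other libraries. The cytokine and chemokine list as a whole had 5 of 9 measured members above 0 for CL over saline and a median of 0.09, beside 0.13 for all genes. Without the cells that held other-lineage UMIs 3 of 7 were above 0, and the list median was -0.34, beside 0.09 for all genes. None of the 7 was then past 2-fold higher and 2 were lower, where 10.6% and 6.21% of all genes were. Ifng, the cytokine through which NK cells activate macrophages, had 560.0 CPM in cold, 161 CPM in CL and 529 CPM in saline. It had a UMI in 36 of 62 cold cells (58.1%), 18 of 57 CL cells (31.6%) and 17 of 33 saline cells (51.5%), and after thinning in 44.3% of cold, 18.2% of CL and 43.8% of saline cells. In B cells the share was 0.215% in cold and 0% in CL and saline. The log2 ratio was -1.71 for CL over saline (-2.32 to -1.12), -1.80 for CL over cold (-2.33 to -1.28) and 0.08 for cold over saline (-0.35 to 0.53). Over the alternatives the CL over saline value ran from -1.98 to -1.09. Gated T cells had 140.2 CPM of Ifng in cold, 177 CPM in CL and 38.0 CPM in saline, so the CL over saline ratio was 2.22 there, with the opposite sign, and this difference between the cell types was not tested.

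Ccl5, a T cell and monocyte attractant and the most abundant chemokine here, had 8552 CPM in cold, 3447 CPM in CL and 6446 CPM in saline. Ccl3, an inflammatory chemokine, had 224 CPM in cold, 66.9 CPM in CL and 322 CPM in saline, a CL over saline ratio of -2.27 (-3.18 to -1.41). Ccl4, its close relative, had 796 CPM in cold, 492 CPM in CL and 587 CPM in saline, and the CL over saline interval of -0.69 to 0.19 included 0. Xcl1, which attracts cross-presenting dendritic cells, had 428 CPM in cold, 582 CPM in CL and 545 CPM in saline. The summed level of the 16 cytokine and chemokine genes was 11091 CPM in cold, 5439 CPM in CL and 8801 CPM in saline. Of 9 members measured for CL over saline, 3 were past 2-fold higher and 2 lower, beside 12.6% and 6.41% of all genes. The higher ones include Ccl6 and Ccl9, with 3 of 43 and 4 of 32 CL UMIs left once cells with other-lineage UMIs were removed. Areg, the epidermal growth factor ligand amphiregulin, had 30 UMIs in 4 cold cells, none in CL and 3 in 2 saline cells, with a top cold cell of 16 UMIs.

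**Figure D4:**
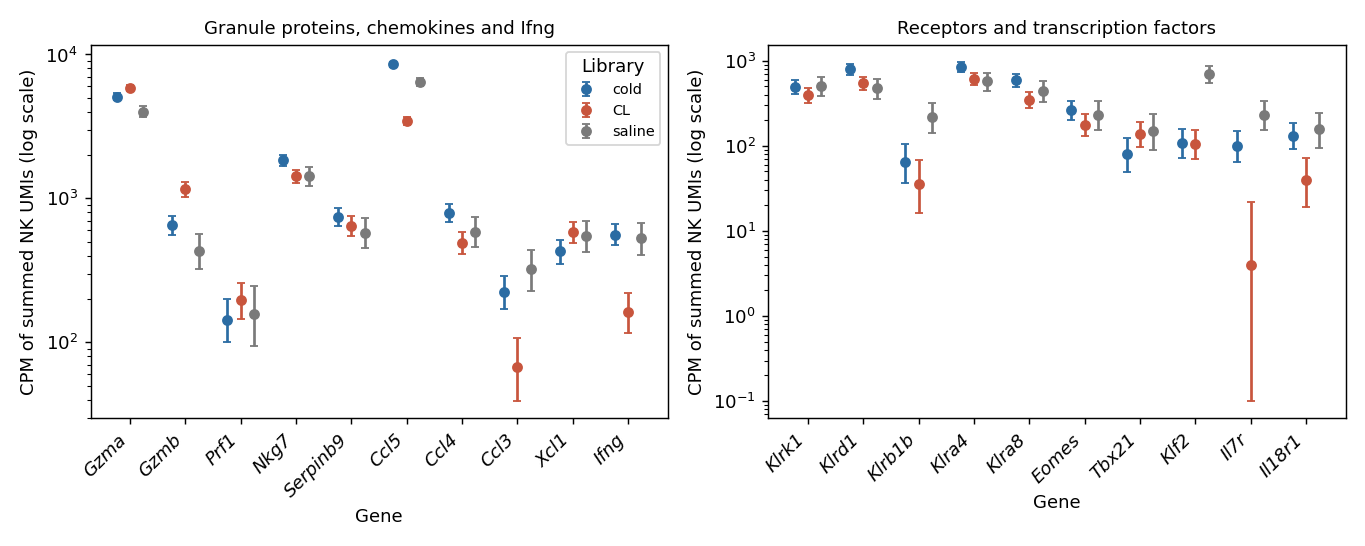
Level of granule, chemokine and cytokine genes (left) and of receptors and transcription factors (right) in NK cells of the cold, CL and saline libraries, as CPM on a log axis with exact Poisson intervals. Ifng and Ccl3 are lowest in CL, Gzmb is highest in CL, and Klf2 and Klrb1b are highest in saline.

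Of the measured transcription factors, Klf2 had the lowest cold over saline ratio and was as low in CL. Klf2, which holds lymphocytes quiescent and supports their exit from tissue, was named after its values were seen. It had 108 CPM in cold, 106 CPM in CL and 694 CPM in saline, with 27, 27 and 84 UMIs, of which the top saline cell held 14. Its ratio was -2.68 for cold over saline (-3.37 to -2.04) and -2.71 for CL over saline (-3.39 to -2.07). A Klf2 UMI was found in 30.6% of cold, 28.1% of CL and 51.5% of saline NK cells, and after thinning in 16.4%, 14.5% and 37.5%. In gated T cells the share was 35.0% in cold, 46.9% in CL and 43.9% in saline. No gated class lacked Klf2, so no background share could be set beside it. Immediate early genes can be induced while tissue is dissociated, and Jun had 164 CPM in cold, 169 CPM in CL and 529 CPM in saline NK cells beside Klf2. Over the whole immediate early list 9 of 17 measured genes were below 0 for cold over saline, with a median of -0.07, and 16 of 18 for CL over saline, with a median of -0.47, while Fos, an AP-1 subunit, had 384 CPM in cold, 354 CPM in CL and 380.1 CPM in saline. The part of dissociation in the Klf2 result was not tested.

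The intervals of the ratios of Eomes and Tbx21, factors that specify NK cells, to saline included 0. Eomes had 260.0 CPM in cold, 177 CPM in CL and 231 CPM in saline, and Tbx21, the T-bet factor of maturing NK cells, had 80.0 CPM in cold, 138 CPM in CL and 149 CPM in saline. Tbx21 had 20 UMIs in cold, 35 in CL and 18 in saline, and its cold over saline ratio of -0.89 had an interval of -1.89 to 0.11. A difference in these factors was not detectable at this depth. Irf8, needed for NK maturation, had 596 CPM in cold, 1019 CPM in CL and 901 CPM in saline. Ets1, a factor of early NK development, had 576 CPM in cold, 319 CPM in CL and 570.2 CPM in saline, a CL over saline ratio of -0.84 (-1.32 to -0.35). Ikzf2, the Helios factor, had 120.0 CPM in cold, 35.4 CPM in CL and 157 CPM in saline. For CL over saline 15 of 21 measured factors were below 0 and 6 past 2-fold lower, beside 41.8% and 6.41% of all genes. The median was -0.83, at the low end of the alternatives, which ran from -0.83 to -0.13. Without the cells that held other-lineage UMIs it was -0.31. In the cells left, 12 of 19 factors were below 0 and 5 past 2-fold lower, where 6.21% of all genes were. For cold over saline 14 of 21 were below 0 and 4 past 2-fold lower, beside 51.5% and 6.83% of all genes.

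Most measured cytokine receptors were lower in both treated libraries than in saline. All 8 members measured for cold over saline were below 0, 1 of them past 2-fold, beside 51.5% and 6.83% of all genes. Set against saline, CL had 7 of 10 below 0 and 3 past 2-fold lower, beside 41.8% and 6.41% of all genes. The medians were -0.39 for cold and -0.90 for CL. The 19 receptor genes summed to 1960 CPM in cold, 1484 CPM in CL and 2537 CPM in saline. Il7r, the interleukin-7 receptor that is typical of innate lymphoid cells other than mature NK cells, had 25 UMIs in cold (9 cells), 1 in CL and 28 in saline (9 cells). With 3 counts in place of 1 the CL over saline ratio was -4.29, and the interval of the observed ratio ran from -11.23 to -3.28. Il2rb, the shared receptor chain for interleukins 2 and 15 that NK cells need to survive, had 399.98 CPM in cold, 307 CPM in CL and 578 CPM in saline. Il18r1, which makes NK cells respond to interleukin-18 with interferon gamma, had 132 CPM in cold, 39.4 CPM in CL and 157 CPM in saline, a CL over saline ratio of -2.00 (-3.26 to -0.82). Gated T cells had a median of 0.19 for this list in CL over saline.

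Most measured markers of early NK maturation were below 0 for CL over saline, and most of late maturation above 0. Of 12 measured genes of the immature NK list, 10 were below 0 for CL over saline, 5 of them past 2-fold, with a median of -0.83. Without the cells that held other-lineage UMIs 10 of 12 were again below 0 and 5 past 2-fold lower, where 6.21% of all genes were. Their summed level was 4116 CPM in cold, 3227 CPM in CL and 4289 CPM in saline. Cd27, a co-receptor of the early stage, had 152 CPM in cold, 70.8 CPM in CL and 231 CPM in saline. Ltb, the lymphotoxin beta chain, had 199.99 CPM in cold, 35.4 CPM in CL and 116 CPM in saline. Emb, the adhesion protein embigin, had 372 CPM in cold, 146 CPM in CL and 347 CPM in saline, a CL over saline ratio of -1.25 (-1.93 to -0.58). Of 12 measured genes of the mature NK list, 10 were above 0 for CL over saline and 2 past 2-fold higher. Over all genes these shares were 58.2% and 12.6%. The mature list had a median of 0.53 and a summed level of 8539.5 CPM in cold, 11145 CPM in CL and 7875 CPM in saline. The mature list holds Gzma, a gene of the rule, which made up a large part of that sum. Without Gzma 9 of 11 were above 0 for CL over saline, with a median of 0.51, and the sum was 3464 CPM in cold, 5313 CPM in CL and 3867 CPM in saline. The members below 0 were Klf2 and Spn, the sialophorin CD43. Ly6c2, which marks mature NK cells and also monocytes, had 264 CPM in cold, 386 CPM in CL and 66.1 CPM in saline, and without the cells that held other-lineage UMIs 284 CPM in cold, 205 CPM in CL and 74.9 CPM in saline. For cold over saline the immature list had 7 of 12 above 0 and the mature list 5 of 11. The list of type 1 innate lymphoid cell markers (ILC1), kin of NK cells that stay in tissue, shares Il7r, Cd7, Ltb and Kit with the immature list. Its sum was 820 CPM in cold, 382 CPM in CL and 967 CPM in saline, and any of its genes had a UMI in 45 of 62 cold, 23 of 57 CL and 25 of 33 saline NK cells. UMIs of Il7r and Eomes occurred together in 7 of the 152 cells, Il7r alone in 12 and Eomes alone in 67. The rule thus does not tell ILC1 from NK cells. For CL over saline the ILC1 list had a median of -1.66. Of its 7 measured members 3 were above 0 and 4 past 2-fold lower, beside 58.2% and 6.41% of all genes. Those 4 were Il7r, Cd7, Ltb and Rora, a factor of innate lymphoid cells, with 64.0 CPM in cold, 15.7 CPM in CL and 140.5 CPM in saline. Without the other-lineage cells 4 members were measured, all 4 past 2-fold lower, where 6.21% of all genes were. Among cells with at most 5% mitochondrial UMIs the list median was 0.41, with the opposite sign, but only 2 members were measured there.

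Cells with proliferation transcripts were a smaller share of the cold NK cells. Mki67 or Top2a, genes of dividing cells, had a UMI in 11 of 62 cold cells (17.7%), 20 of 57 CL cells (35.1%) and 13 of 33 saline cells (39.4%). After thinning these were 11.5% of cold, 29.1% of CL and 34.4% of saline cells. The share in stromal cells, at greater depth, was 2.02% in cold, 4.69% in CL and 1.82% in saline. In gated T cells it was 31.2% in cold, 33.7% in CL and 22.1% in saline. Mki67 itself had 152 CPM in cold, 496 CPM in CL and 744 CPM in saline, with a cold over saline ratio of -2.29 (-2.88 to -1.73). The 20 genes of the G2/M list summed to 1284 CPM in cold, 2428 CPM in CL and 2611 CPM in saline. For cold over saline 9 of 12 measured were below 0 and 4 past 2-fold lower, beside 51.5% and 6.83% of all genes. The top 3 cells held 244 of 321 G2/M UMIs in cold and 225 of 617 in CL, and the top 3 saline cells held 239, so these levels rest on few cells. For CL over cold, 15 of 15 measured S phase genes and 12 of 13 G2/M genes were above 0, 5 and 3 of them past 2-fold. Over all genes these shares were 58.3% and 10.0%. The G2/M median was 0.78 there and -0.40 among cells with at most 5% mitochondrial UMIs. A UMI of Gzmb and one of Mki67 or Top2a occurred together in 32 of the 152 NK cells, Gzmb alone in 67 and the proliferation genes alone in 12.

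Genes induced by type I interferon were higher in the CL NK cells, and 9 cells held a large part of those UMIs. The 30 genes of the list summed to 1072 CPM in cold, 3951 CPM in CL and 1322 CPM in saline, and 20 of the 30 were detected in cold, 30 in CL and 23 in saline. CL over saline had a median of 1.76, with 14 of 14 measured members above 0 and 11 past 2-fold higher. Over all genes these shares were 58.2% and 12.6%. CL over cold had a median of 1.56, with 15 of 15 above 0 and 12 past 2-fold higher, beside 58.3% and 10.0% of all genes. For cold over saline 5 of 10 were above 0, beside 48.5% of all genes. None of these 10 was past 2-fold higher and 2 were past 2-fold lower, beside 5.39% and 6.83% of all genes. The 9 CL cells with myeloid UMIs held 604 of the 1004 interferon UMIs. Without cells that held other-lineage UMIs the list summed to 974 CPM in cold, 2048 CPM in CL and 946 CPM in saline. In the remaining cells 10 of 11 measured members were above 0 for CL over saline and 8 past 2-fold higher, where 10.6% of all genes were, with a median of 1.32. Relative to cold, 10 of 11 were above 0 and 6 past 2-fold higher and none lower, where 9.46% and 6.38% of all genes were, with a median of 1.22. Per cell, the median level of the list was 939.9 CPM in cold, 2199 CPM in CL and 689 CPM in saline. The list was higher in CL than saline in other classes too, with a median of 2.22 in T cells, 1.81 in B cells and 2.02 in myeloid cells. The T and B cells were not cleared of cells with other-lineage UMIs as the NK cells were. The myeloid gene Lyz2 had 1669 CPM in CL and 398 CPM in saline T cells, and 1260 CPM in CL and 240 CPM in saline B cells. How far such transcripts enter these medians was not tested.

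Single genes of the list behaved in different ways once those cells were left out. Bst2, the membrane protein tetherin that holds budding virus on the cell, had 56.0 CPM in cold, 425 CPM in CL and 66.1 CPM in saline, a CL over saline ratio of 2.68 (1.65 to 3.93). Without cells that held other-lineage UMIs it had 60.3 CPM in cold, 271 CPM in CL and 37.5 CPM in saline, a CL over saline ratio of 2.86, and its CL over cold ratio was 2.17, against 2.92 in all NK cells. Bst2 had a UMI in 12 of 62 cold cells (19.4%), 32 of 57 CL cells (56.1%) and 6 of 33 saline cells (18.2%), and after thinning in 8.20% of cold, 43.6% of CL and 9.38% of saline cells. The share was 10.03% of B cells in cold, 15.05% in CL and 5.70% in saline, and 43.5%, 87.8% and 43.2% of the deeper stromal cells. Bst2 in CL NK cells was thus above its share in CL B cells. Zbp1, a sensor of nucleic acid in Z form, had 52.0 CPM in cold, 224 CPM in CL and 57.9 CPM in saline, with CL over saline ratios of 1.955 in all cells and 1.54 without the other-lineage cells.

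Isg15, a ubiquitin-like modifier named after its values were seen, lost most of its difference. It had 84.0 CPM in cold, 244 CPM in CL and 49.6 CPM in saline over all NK cells, and 90.5 CPM in cold, 87.0 CPM in CL and 56.2 CPM in saline without the other-lineage cells. Its CL over saline ratio was 2.30 in all cells and 0.63 in the remaining cells. Ifi27l2a, an interferon-induced mitochondrial protein, had 141 UMIs in CL NK cells, of which 13 were outside the 9 cells. Trim30a, a regulator of innate sensing also named after its values were seen, had 96.0 CPM in cold, 228 CPM in CL and 66.1 CPM in saline, with ratios of 1.79 and 1.32.

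**Figure D5:**
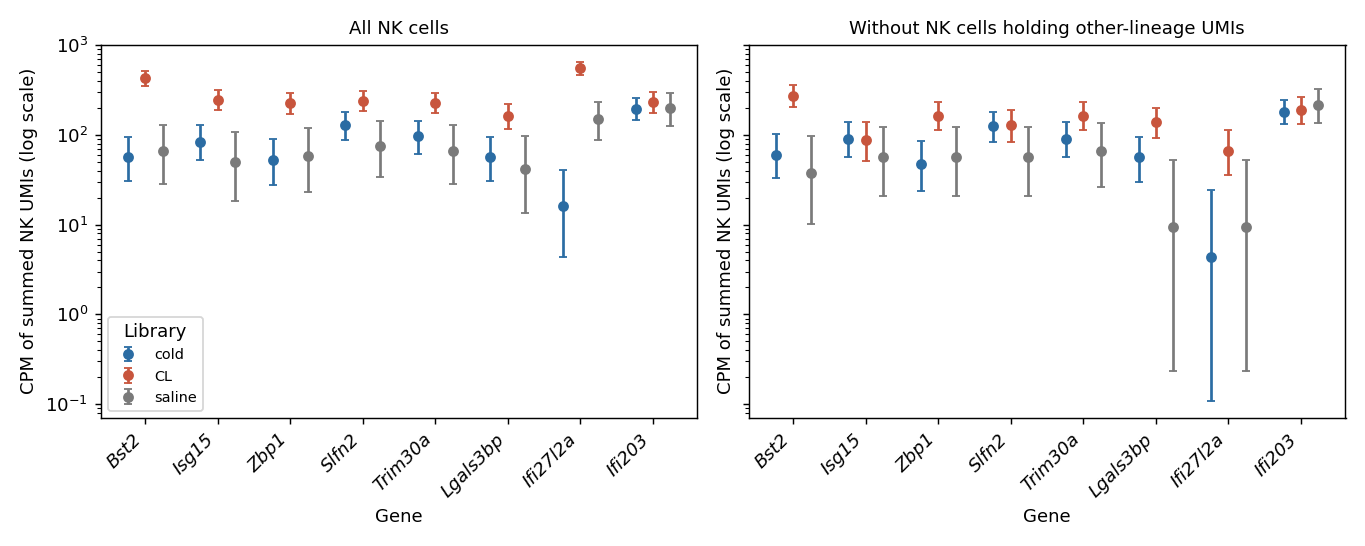
Level of 8 interferon-induced genes in NK cells of the cold, CL and saline libraries, as CPM on a log axis with exact Poisson intervals, over all NK cells (left) and without the cells that held at least 10 UMIs of other lineages (right). Bst2 and Zbp1 stay highest in CL on the right, while Isg15 and Slfn2 lie level with cold.

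Many interferon-induced genes carry the interferon-stimulated response element, and the upstream stretches of the 3 genes just contrasted are shown to let it be read. The motif searched was GAAANNGAAA, or TTTCNNTTTC on the other strand, in the 250 bases before each gene's start, with overlapping matches counted (RefSeq, GRCm38.p6). It was in 978 of 32851 such windows (2.98%), or 936 of 27025 genes (3.46%), and in 10 of the 22 list genes that have a window (45.5%). The last 150 bases before the start follow, 5′ to 3′ on the gene's strand, with motif matches in capitals. Bst2 (chr8:71537473-71537622, minus strand) has 2 overlapping matches, Isg15 (chr4:156200819-156200968, minus strand) has 3 and Trim30a (chr7:104465194-104465343, minus strand) has 1. Another Trim30a window has 0 matches and is not shown.
Bst2: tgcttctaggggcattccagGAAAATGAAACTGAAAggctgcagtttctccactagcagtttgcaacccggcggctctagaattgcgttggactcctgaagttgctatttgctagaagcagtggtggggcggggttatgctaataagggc
Isg15: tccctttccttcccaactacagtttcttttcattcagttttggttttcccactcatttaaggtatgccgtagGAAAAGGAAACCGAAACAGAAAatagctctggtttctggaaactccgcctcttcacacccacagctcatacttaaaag
Trim30a: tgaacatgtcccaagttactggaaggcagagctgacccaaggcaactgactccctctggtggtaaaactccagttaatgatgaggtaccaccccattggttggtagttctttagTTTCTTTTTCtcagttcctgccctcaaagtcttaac
A match describes the letters only. All 3 genes hold the motif in the window shown, whatever their ratios did once the other-lineage cells were left out.

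Most measured class I antigen presentation genes were above 0 in both ratios to saline. Cold over saline had 9 of 11 above 0, with a median of 0.33. All 11 measured genes of 12 were above 0 for CL over saline and 4 past 2-fold higher, beside 58.2% and 12.6% of all genes. Their median was 0.80. Without the other-lineage cells 10 of 11 were above 0, with a median of 0.59. Of these, 4 were past 2-fold higher, where 10.6% of all genes were. For CL over cold 8 of 11 were above 0, with a median of 0.44, and without the other-lineage cells the median was 0.12, beside 0.13 for all genes. Psmb8, a subunit of the immunoproteasome that cuts peptides for MHC class I, had 464 CPM in cold, 641 CPM in CL and 264 CPM in saline, a CL over saline ratio of 1.28 (0.72 to 1.87). Psmb9, another such subunit, had 152 CPM in cold, 279 CPM in CL and 107 CPM in saline. The MHC heavy chain H2-K1 had 2808 CPM in cold, 2837 CPM in CL and 2562 CPM in saline, and so differed little. The CL over saline ratio was 1.38 for Psmb9 and 0.15 for H2-K1.

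Genes of the NF-kB pathway and of survival were higher in cold. Of the 19 members 14 were measured for cold over saline. Of these, 13 were above 0 and 4 past 2-fold higher, beside 48.5% and 5.39% of all genes. Without the other-lineage cells 11 of 13 were above 0 and 4 past 2-fold higher, where 5.78% of all genes were, and none was past 2-fold lower, where 6.49% were. The list median was 0.59 and ran from 0.22 to 1.42 over the alternatives. The list summed to 6180 CPM in cold, 3955 CPM in CL and 3859 CPM in saline. Nfkb1, the p105 and p50 subunit, had 592 CPM in cold, 496 CPM in CL and 215 CPM in saline, a cold over saline ratio of 1.46 (0.85 to 2.12). Nfkbia, the feedback inhibitor of the pathway, had 1248 CPM in cold, 629.6 CPM in CL and 661 CPM in saline. Pim1, a survival kinase downstream of cytokine receptors, had 844 CPM in cold, 488 CPM in CL and 388 CPM in saline, a ratio of 1.12 (0.66 to 1.61). The member below 0 was Bcl2l11, a pro-apoptotic BCL2 relative, with 224 CPM in cold, 189 CPM in CL and 314 CPM in saline. In gated T cells the cold over saline median of the list was 0.22 and in Cd8 T cells 0.70. In CL over saline 8 of 13 members were below 0, with a median of -0.27. In CL over cold 15 of 17 were below 0 and 4 past 2-fold lower, beside 41.7% and 5.80% of all genes.

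Most immediate early genes were lower in CL than in saline. Of the 18 measured members 4 were past 2-fold lower and 2 past 2-fold higher, beside 6.41% and 12.6% of all genes. Without the cells that held other-lineage UMIs all 16 measured members were below 0, with a median of -0.70. Of these 16, 5 were past 2-fold lower and none higher, where 6.21% and 10.6% of all genes were. Junb, an AP-1 subunit, had 2788 CPM in cold, 1342 CPM in CL and 2025 CPM in saline. Dusp1, a phosphatase that ends MAP kinase signals, had 340.0 CPM in cold, 307 CPM in CL and 702 CPM in saline. The heat shock chaperone Hspa1b had 116 CPM in cold, 35.4 CPM in CL and 347 CPM in saline, from 7 cold, 5 CL and 6 saline cells.

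Most measured genes of the glycolysis and mTORC1 list were above 0 in both ratios to saline. The list joins glycolytic enzymes with genes such as Odc1, which makes polyamines, and Slc3a2, a chain of amino acid transporters. Of 11 measured members 9 were above 0 for cold over saline and 2 past 2-fold higher, beside 48.5% and 5.39% of all genes. Of 10 measured for CL over saline 8 were above 0 and 4 past 2-fold higher, beside 58.2% and 12.6% of all genes. The enzymes did not all do so. Gpi1, the glucose phosphate isomerase, had 224 CPM in cold, 153 CPM in CL and 215 CPM in saline, and Pfkp, a phosphofructokinase, had 120.0 CPM in cold, 197 CPM in CL and 223 CPM in saline, a cold over saline ratio of -0.89. The sum of the list was 3024 CPM in cold, 3510.3 CPM in CL and 2297 CPM in saline. Ldha, which turns pyruvate into lactate, had 292 CPM in cold, 449 CPM in CL and 140.5 CPM in saline, with ratios of 1.06 for cold (0.28 to 1.91) and 1.68 for CL (0.93 to 2.50). Gapdh, the glyceraldehyde phosphate dehydrogenase, had 616 CPM in cold, 999.6 CPM in CL and 463 CPM in saline. Pkm, the pyruvate kinase, had 308 CPM in cold, 331 CPM in CL and 297 CPM in saline. Genes of beta-adrenergic and cyclic AMP signalling had 7 of 9 above 0 for cold over saline, 2 of 8 for CL over saline and 1 of 10 for CL over cold. The medians were 0.18, -0.32 and -0.23 in that order, beside -0.05, 0.13 and 0.17 for all genes. None was past 2-fold higher, and 1 was past 2-fold lower in each CL ratio. That list summed to 3208 CPM in cold, 2471 CPM in CL and 3198 CPM in saline. The cold-shock protein gene Rbm3 had 1016 CPM in cold, 1090.1 CPM in CL and 619.8 CPM in saline, while Cirbp, the other gene of the cold-inducible list, had 60.0 CPM in cold, 39.4 CPM in CL and 57.8 CPM in saline, from 15, 10 and 7 UMIs.

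Genes were also named by size, as those whose ratio interval lay farthest from 0, leaving out genes with a far higher level in another cell class. Several of them separated cold from saline. Dusp2, a nuclear MAP kinase phosphatase of activated lymphocytes, had 624 CPM in cold, 338 CPM in CL and 157 CPM in saline, a cold over saline ratio of 1.99 (1.30 to 2.76). Icam1, an adhesion ligand, had 240.0 CPM in cold, 153 CPM in CL and 74.4 CPM in saline, a ratio of 1.69 (0.67 to 2.89). H3f3b, a replacement histone, had 2336 CPM in cold, 1979.5 CPM in CL and 1165 CPM in saline, a ratio of 1.00. Mpc1, a mitochondrial pyruvate carrier subunit, had 108 CPM in cold, 126 CPM in CL and 16.5 CPM in saline, where only 2 UMIs were counted. Abcb1b, a drug efflux pump, had 24.0 CPM in cold, 55.1 CPM in CL and 140.5 CPM in saline, a ratio of -2.55 (-4.18 to -1.14).

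Among the genes named by size for CL over saline, beside Gzmb, Ldha and Bst2, was Cyba, a subunit of the phagocyte oxidase. Cyba had 752 CPM in cold, 984 CPM in CL and 364 CPM in saline, a CL over saline ratio of 1.44 (0.97 to 1.93) and of 1.27 without the other-lineage cells. At the low end, Zfp36l1, a protein that destabilises messenger RNA, had 304 CPM in cold, 130 CPM in CL and 421 CPM in saline, a ratio of -1.70 (-2.38 to -1.04). St8sia4, a polysialyltransferase, had 164 CPM in cold, 122 CPM in CL and 364 CPM in saline. Between the treated libraries, Tuba1b, a tubulin of dividing cells, had 960.2 CPM in CL and 348 CPM in cold, a CL over cold ratio of 1.46 (1.11 to 1.83) that was 0.37 without cells that had UMIs of Mki67 or Top2a. Hilpda, a lipid droplet protein induced by hypoxia, had 19.7 CPM in CL and 140.0 CPM in cold, a ratio of -2.83 (-4.54 to -1.47).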

How the data were processed

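Gene by barcode UMI counts of 3 droplet libraries were deposited by the authors as filtered matrices, made with Cell Ranger 3.0.2 per the file headers and mm10 per the submitters' processing notes. Barcodes with under 500 genes or over 15% mitochondrial UMIs were removed. The UMI counts of the NK cells were summed per library and scaled to CPM. Ratios carry exact conditional Poisson intervals at 95% confidence, shares Clopper-Pearson intervals, and all cover counting error only. Comparison classes were gated on markers: T cells 2 UMIs, B cells 3, myeloid cells 10, stromal cells 5 and endothelial cells 4. With 1 library per group there is no replicate error and no test, and cells are not replicates. Thinning used 1500 UMIs per cell, leaving out shallower cells. Alternatives changed the mitochondrial limit, gene minimum, NK rule, UMI minimum, scaling (edgeR 4.0.16 TMM factors, R 4.3.3), doublets and dividing cells. Scrublet came from scanpy 1.11.5. Code ran in Python 3.11.15 with numpy 2.4.6, scipy 1.17.1, pandas 2.3.3 and matplotlib 3.10.9, and was tested on simulated data. Of the gene IDs, 28339 matched GENCODE M21, which gave coordinates. The members and lists were chosen with earlier results of these data known. Named genes were the 10 highest and 10 lowest by interval bound against saline and the 5 highest and 5 lowest for CL over cold, among genes with at least 20 UMIs and an NK level of at least 0.25 of that in any other class, plus up to 6 members per list with the most UMIs, the rule's genes, markers and the 15 top genes against other classes. Genes outside that rule, chosen after their values were seen, were Klf2, Isg15, Trim30a, Jun, Fos, Eomes, Tbx21, Ikzf2, Cd27, Spn, Bcl2l11, Psmb9, Ccl6, Ccl9, Lamp1 and Pfkp.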

Additional observations from a re-analysis of the deposited data

Results flagged for a closer look

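Gene lists whose median lay at least 0.3 (log2) on opposite sides of 0 in NK cells and in gated T cells are given here. None of these differences was tested. For cold over saline, the S phase list had a median of -0.46 in NK cells (2 of 9 measured genes above 0) and 0.44 in T cells (19 of 20 above 0). That NK median was 1.55 with at most 5% mitochondrial UMIs. The G2/M list for cold over saline had a median of -0.68 in NK cells (3 of 12 above 0) and 0.55 in T cells (19 of 20 above 0). For CL over saline, the immediate early list had a median of -0.47 in NK cells (2 of 18 above 0) and 0.30 in T cells (12 of 19 above 0). For CL over cold, the NK cytokine and chemokine list had a median of -0.69 in NK cells (4 of 11 above 0) and 0.48 in T cells (8 of 12 above 0). The list of type 1 innate lymphoid cell markers had a median of -2.02 in NK cells for CL over cold (2 of 7 above 0) and 0.35 in T cells (9 of 14 above 0).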

How the results depend on the processing

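No paired analysis was possible because each group has 1 library, and no library could be left out. The cold over saline share stayed positive in every alternative run, at 1.61 over all cells and 1.37 per T cell. The CL over saline log2 ratio of 0.69 became 2.67 per T cell and 1.64 outside the myeloid gate, and CL over cold, -0.92 over all cells, became 1.30 and 0.13 under the same denominators. Genes past 2-fold for cold over saline numbered 304, but 132 with at most 5% mitochondrial UMIs (18 cold, 46 CL and 12 saline NK cells left), 51 at a minimum of 50 UMIs and 729 at a minimum of 10. For CL over saline 518 became 269 without cells that had UMIs of Mki67 or Top2a, 135 at 50 UMIs and 977 at 10, and for CL over cold 530 became 327, 154 and 1186. With at most 5% mitochondrial UMIs several values changed sign. Gzmc was -0.45 for cold over saline and 0.082 for CL over cold (0.30 at 10%). Gzmc had 22 UMIs in cold, 9 in CL and 0 in saline over all NK cells, with 3 counts in place of 0. Its values here thus rest on few UMIs and do not show a reversal of expression. Cd7 was 0.17 for CL over saline, Tpx2 -0.11 for CL over cold and the G2/M median -0.40 for CL over cold. The ILC1 median for CL over saline was 0.41 from 2 measured genes (0.36 from 3 genes with a marker sum of at least 5). Among list medians under 0.5 in size, these also changed sign there and moved by over 0.5 on the log2 scale: S phase, cold over saline (1.55), type I interferon, cold over saline (-0.96), NF-kB and survival, CL over saline (0.26), and G2/M, CL over saline (-0.54). Without those dividing cells, Areg was -1.15 for cold over saline and 0.11 for CL over cold. Gzmc was -0.15 for cold over saline and Rrm1 -0.89 for CL over cold. Over all NK cells Areg had 0 UMIs in CL and 3 in saline, and Gzmc had 0 in saline. Each of the Areg and Gzmc values thus has 3 counts on 1 side and does not show a reversal of expression. Without cells that held other-lineage UMIs, chosen after seeing the data, Phf11b was -0.024 for CL over saline, and Crip1 -0.043 and Isg15 -0.057 for CL over cold. The causes were not tested. Of the other values for single genes, 6237 stayed within the counting interval and 303 moved.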
